A study of Caenorhabditis elegans with 16 samples.

Results

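The cytosolic ribosomal protein genes of Caenorhabditis elegans were followed across the cell types of the first larval stage. The set was chosen by name: every gene called rpl- or rps- followed by digits, together with rla-0, rla-1 and rla-2, which gave 81 of the 18570 genes in the deposited single-cell count matrix. The measure used throughout is the share of a group's unique molecular identifier (UMI) counts, the counts of distinct captured mRNA molecules, that fell on these 81 genes, and the level of each gene in CPM, its UMI count scaled to a fixed library total. Over 148201 live, annotated cells the set took 18.6% of 256872943 UMIs, although it is 0.436% of the genes.

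Ribosomal proteins assemble on ribosomal RNA in the nucleolus to form the large and the small ribosomal subunit, which join on an mRNA to make protein. The rpl genes encode proteins of the large subunit and the rps genes proteins of the small subunit. The rla genes encode the stalk of the large subunit: rla-0 the P0 protein at its base, and rla-1 and rla-2 the acidic P1 and P2 proteins that help to recruit elongation factors. Dividing and growing cells are known to make many ribosomes. In the first larval stage the P cells of the ventral cord divide: the anterior daughter of each, Pn.a, is a neuroblast whose descendants include the VA, VB, VC, VD and AS motor neurons, whereas the posterior daughter, Pn.p, is an epidermal cell.

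The cells came from hermaphrodites that the labels call genotype wt, sorted by fluorescence for reporter genes with DAPI to mark dead cells, and were measured as 10x Genomics droplet libraries. There were 15 libraries of live cells and 1 of cells fixed in methanol after sorting, which was left out. Hours are after hatching. The command interneuron library came from strain NC3581 at 12 to 16 h, in which otIs708 drives Scarlet from sra-11p and tagRFP from inx-6p18, and rhIs2 drives GFP from glr-1. The sensory neuron library came from PS9221 at 14 to 16 h, whose syIs764 drives GFP from Ptax-4 and from Pocr-2. The 2 pan-neuronal libraries came from OH10689 at 11.5 to 14.5 h, whose otIs355 puts 2xNLS-tagRFP under rab-3(prom-1). The unc-86 library, at 12 to 15 h, used kyIs262 (myr-GFP from unc-86, RFP from odr-1). The eat-4 library, also at 12 to 15 h, used OH9625, where otIs292 carries mCherry from eat-4 and the marker rol-6(su1006). The 2 flp-7 libraries came from NY2066 at 14 to 17 h, whose ynIs66 drives GFP from flp-7p.

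In 3 experiments cells of separate strains were pooled before the sort, and each pool is named here after 1 of its reporters. The ceh-34 pool, sorted at 14 to 17 h, joined NC3583 with NC2957. NC3583 carries stIs10447 (HIS-24::mCherry from ceh-34p, with unc-119(+)) and evIs111 (GFP from F25B3.3, with dpy-20(+)), and NC2957 carries wdIs90 (GFP from unc-4c) and ufIs26 (mCherry from unc-4). The unc-47 pool, sorted at 13.5 to 17 h, joined 4 lines: OH16003, with GFP from nlp-13 in otIs742; EG1285, with GFP from unc-47 in oxIs12 and the mutation lin-15B&lin-15A(n765); ZM5488, with GFP from ceh-10 in hpIs202; and uIs152, with RFP from mec-3. The 3 GFP arrays of that pool also carry lin-15(+). The acr-2 pool, sorted at 13 to 17 h, joined CZ631, with GFP from acr-2 and lin-15(+) in juIs14, with NC3523, whose wdIs90 gives GFP from both unc-4c and ceh-22, and PS3504, which has GFP from ceh-2 and unc-119(+) in syIs54 on an unc-119(ed4) background. The 4 P-lineage libraries came from UD381, whose ycIs11 drives vab-10abd::venus and, separately, nls::tdTomato from phlh-3, with gfp from odr-1. Of these, 1 was taken at 11 to 14 h, 1 at 15.5 to 18.5 h and 2 at 21 to 24 h. The deposited annotation names the P-lineage libraries by other hours than the labels, and the youngest was matched as the only P-lineage library left. Each sort enriched the cells in which its promoter is active, and every other tissue in a library consists of cells that passed the same gate.

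Live libraries held 1798814 to 50689801 UMIs, with a median of 227 to 3949 UMIs per cell. Of 148627 distinct cell barcodes, 2756 occurred in 2 or more libraries. Tissue and cell class were taken from the deposited annotation; 94 cells of unknown tissue were left out of the comparisons, and doublets were not treated here. The annotation was set beside marker lists. The 12 neuron markers summed to a median of 14360 CPM in neurons and 1128 CPM in progenitors, and 15 genes of dividing cells summed to 6246 CPM in progenitors and 127.4 CPM in neurons. Some markers of other tissues were high in neurons or progenitors. Of the 10 muscle markers, unc-54, which encodes a muscle myosin heavy chain, took 0.003% to 19.98% of neuron UMIs by library, and act-4, an actin gene, had 1852 CPM in neurons, 7746 CPM in progenitors and 7273 CPM in muscle and mesoderm. The other 8 together reached 180.6 CPM in neurons, 27.01 CPM in progenitors and 46050 CPM in muscle and mesoderm. Of the epidermis markers, rol-6 had 374.3 CPM in neurons and 98.58 CPM in epidermis, and elt-1 had 109.5 CPM in progenitors, 56.36 CPM in neurons and 29.85 CPM in epidermis. The glia marker mls-2 had 50.3 CPM in neurons and 0.90 CPM in glia. The part of these genes in the results was not tested, apart from unc-54, without which shares are given. In 9 libraries the matrix also holds entries written as 0, in all 3505163 of 87588685 entries, and these fell unevenly on the ribosomal protein genes. The 4 P-lineage, 2 flp-7 and sensory neuron libraries hold none. The part of these zeros in the results was not tested; counts from the libraries without them are given where they change a call.

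The abundant members were rpl-12 at 7244 CPM, rpl-41.2 at 4806 CPM and rps-25 at 4336 CPM over all live annotated cells, in UMIs not corrected for transcript length. The scarcest were rpl-24.2 at 208.1 CPM, rpl-11.1 at 93.28 CPM and rpl-42 at 0.156 CPM. All 3 of these scarce genes are in the large subunit set by name; rpl-42 had 40 UMIs and none in 10 of the 15 live libraries, and was the only member that failed the filter on low counts. The other 80 members had a UMI in every live library.

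The set's share of UMIs was lowest in neurons, somewhat higher in neuronal progenitors, and higher again in the non-neuronal tissues; among tissues with at least 50 cells in a library, the medians of epidermis and muscle and both excretory values were the highest. In neurons the lowest, median and highest of 15 libraries were 4.39%, 9.26% and 13.7%. In neuronal progenitors they were 6.60%, 10.5% and 18.7% over 10 libraries. These 2 ranges overlapped. In intestine they were 10.3%, 16.1% and 20.3% over 10 libraries, and in pharynx 9.04%, 16.2% and 27.9% over 10. In glia they were 14.7%, 22.2% and 28.5% over 12 libraries. Every glial library thus lay above every neuron library. In epidermis they were 18.7%, 26.7% and 40.8% over 13 libraries, and in muscle and mesoderm 23.1%, 27% and 30.4% over 13. The 4 libraries with rectal cells gave 14.5% to 19.6%, and the 2 with excretory cells gave 28.4% and 32.4%. The germ line, sampled as only 35 and 28 cells in 2 libraries, gave 41.17% and 32.9%, above both excretory values. Median depth differed between these tissues and libraries, from 227 to 1606 UMIs per cell in neurons and from 84 to 3624 in epidermis. With only cells of at least 500 UMIs, the mean log2 ratio of the neuron share to the non-neuronal share was -1.70, against -1.69 with all cells, and without unc-54 it was -1.63.

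**Figure D1:**
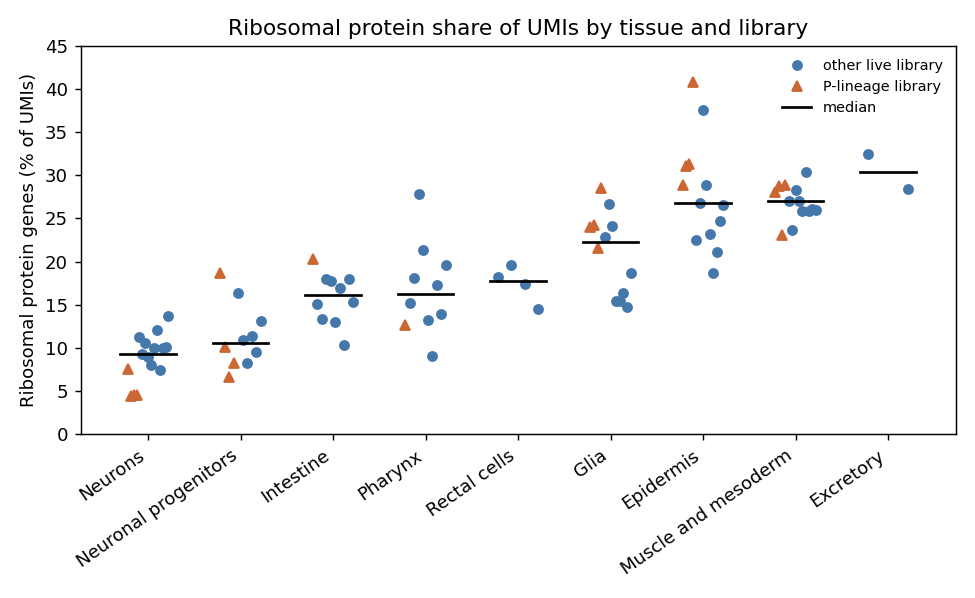
Share of UMIs on the 81 ribosomal protein genes (vertical axis, %) in each annotated tissue (horizontal axis); each point is 1 live library with at least 50 cells of the tissue, triangles are P-lineage libraries and bars are medians. Neurons lie between 4.39% and 13.7%, below all points of muscle and mesoderm, which lie between 23.1% and 30.4%.

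Within libraries, neurons had less of their mRNA in the set than the non-neuronal cells sorted beside them. The neuron share was lower in each of the 14 libraries that held 50 or more cells of both, by 0.45 to 3.05 on the log2 scale, with a mean log2 ratio of -1.69 ± 0.76 (SD, n = 14 libraries). For example, the eat-4 library gave 10.5% in neurons and 28.6% in non-neuronal cells. The smallest gap was in the sensory neuron library, at 9.92% and 13.5%. The widest were in the P-lineage libraries at 15.5 to 18.5 h and 21 to 24 h, where non-neuronal cells had 29.2% to 37.3%. The second pan-neuronal library came next, at 7.46% and 35.3%, with only 52 non-neuronal cells. The non-neuronal side was a mix of tissues that changed by library, and it included Pn.p lineage cells and glial progenitors. Its largest part was intestine in the sensory neuron library (3034345 UMIs, share 10.3%). In the eat-4 library it was muscle and mesoderm (17648277 UMIs, 28.3%), and in the acr-2 pool excretory cells (14727707 UMIs, 28.4%). The part of this mix in the gaps was not tested. As the share is a sum over a chosen set, it is described with no test.

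Gene by gene the difference was carried by the whole set. Counts were summed per library and side and compared with edgeR's quasi-likelihood test with the library as a block, scaling by the trimmed mean of M values (TMM), and Benjamini-Hochberg adjustment over all genes tested. Libraries are the replicates; for most the labels do not say whether they came from separate cultures, so p-values measure the spread between libraries. All 80 members tested were lower in neurons than in non-neuronal cells at an adjusted p under 0.05, where 34.9% of the 9325 genes tested were lower, and the members' median log2 difference was -1.66. The members comprised 46 large subunit genes with a median of -1.69, 31 small subunit genes with a median of -1.63 and the 3 stalk genes. The count was 80 under each scaling tried and without the P-lineage libraries, and 77 with only the libraries that hold no stored zeros.

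The stalk gene rla-0 had a lowest, median and highest level of 394, 1987 and 4448 CPM in neurons and of 2978, 4599 and 8426 CPM in non-neuronal cells, on the TMM scale of that fit. The ranges overlapped between libraries, although the difference within libraries passed the test (log2 difference -1.37, SE 0.28, adjusted p = 0.0003668 by edgeR with Benjamini-Hochberg adjustment). Its acidic partners rla-1 and rla-2 differed by -1.66 and -1.54. Among large subunit genes, rpl-25.2, a copy of the gene for the protein called RPL23A in human, showed the widest gap, with 149, 376 and 572 CPM in neurons and 920, 1507 and 2513 CPM in non-neuronal cells. These ranges did not overlap (log2 difference -2.32, SE 0.21, adjusted p = 5.887e-08 by edgeR with Benjamini-Hochberg adjustment). The next were rpl-11.1 at -2.16, rpl-30 at -2.15, rpl-7A at -2.11 and rps-7 at -2.01. The gap of rpl-11.1 did not hold against epidermis or glia alone, at -0.01 and -0.23, where it was not called. It was not called against muscle and mesoderm either, and no single tissue tested gave a call of lower in neurons. The narrowest were rps-29 at -1.08, rpl-38 at -1.13, rpl-24.1 at -1.26 and rpl-2 at -1.34. The members thus spanned about 1.2 log2 units around a shared lower level. The 3 genes of the cytosolic ribosome outside the name rule were lower too: ubl-1 and ubq-2, ubiquitin fused to a small and a large subunit protein, at -1.72 and -1.46, and rack-1, a scaffold on the small subunit, at -1.69.

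Compared with single tissues, the members stood lowest in neurons against muscle, epidermis and glia. Against muscle and mesoderm 79 of 80 members were lower in neurons and none higher (background 30.9% of genes lower, 40.4% higher) with a median log2 difference of -1.95, and against epidermis 79 of 80 and none higher (background 28.7% lower, 35.8% higher) with a median of -1.58. In both, rpl-11.1 was the member not called. Against glia 73 were lower and none higher (background 21.4% lower, 31.6% higher), with a median of -1.11. Against pharynx 46 were lower and 1 higher (background 21.2% lower, 31.6% higher), but 11 with DESeq2's size factors, 71 with library totals only, and 2 without the unc-47 pool. Leaving out the command interneuron, eat-4 or unc-86 library, or the acr-2 pool, lowered that count to 26, 26, 22 and 27. Against intestine 17 were lower and 1 higher (background 23% lower, 46.1% higher), whereas with DESeq2's size factors 28 were higher and none lower, and with library totals 61 were lower. The scaling moved the median of all genes in the intestine fit from 0.75 to 1.92, so no direction is given for it; the members' median lay below that of all genes under both, at -0.50 and 0.52. Leaving out the sensory neuron library left none lower there, the ceh-34 pool 1, the first flp-7 library 1, the second 4, and the unc-47 pool 9. Against rectal cells 1 member was lower and 1 higher (background 11.4% lower, 30.1% higher), and 31 were with library totals. The member rpl-11.1, a copy of rpl-11.2, was called higher in neurons than in intestine (1.90), pharynx (1.37) and rectal cells (2.60) under TMM scaling; the pharynx and rectal calls were lost with library totals.

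Neuronal progenitors, like neurons, were below the non-neuronal tissues in ribosomal protein mRNA. Their share was lower in 10 of 10 libraries, with a mean log2 ratio of -1.22 ± 0.67 (SD, n = 10 libraries). In the test 78 of 80 members were lower in progenitors (background 35.3%) and 1 was higher (background 28.9%), with a median log2 difference of -1.94 beside -0.13 for all genes. The counts were 78 or 79 lower under every alternative tried. The steepest was rpl-11.1, at 0, 15.6 and 38.7 CPM as the lowest, median and highest of 10 libraries in progenitors and 103, 347 and 841 CPM in non-neuronal cells. The ranges did not overlap (log2 difference -4.19, SE 0.35, adjusted p = 5.208e-07 by edgeR with Benjamini-Hochberg adjustment). This gap was against all non-neuronal cells together, and which of them carried it was not tested. Of the UMIs of rpl-11.1 and rpl-11.2 together, rpl-11.1 took a median of 1.61% in progenitors. Its medians were 1.19% in epidermis, 1.83% in glia, 0.89% in intestine and 0.79% in muscle and mesoderm. Of the stalk genes, rla-1 differed by -2.40, rla-0 by -2.20 and rla-2 by -1.95. The small subunit genes rps-6 and rps-21 both differed by -2.29, and the large subunit gene rpl-22 by -2.24. The abundant rpl-12 differed less, by -1.45.

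A pair of genes placed in the large subunit by name went apart from the set. rpl-41.1, a copy of rpl-41.2 that encodes the very small eL41 protein, reached 864, 1240 and 1576 CPM in progenitors and 369, 549 and 805 CPM in non-neuronal cells. It was higher in progenitors in 10 of 10 libraries without overlap of the ranges (log2 difference 1.12, SE 0.16, adjusted p = 4.568e-05 by edgeR with Benjamini-Hochberg adjustment), while rpl-41.2 differed by -1.60. rpl-24.2, which is related to the yeast assembly factor Rlp24, had 228, 262 and 329 CPM in progenitors and 188, 312 and 657 CPM in non-neuronal cells. Its ranges overlapped and its difference of -0.29 was not called (adjusted p = 0.213 by edgeR with Benjamini-Hochberg adjustment), although it was called at -0.62 with DESeq2's size factors.

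Between progenitors and neurons, few members differed over all 10 libraries under TMM scaling. The share was higher in progenitors in every P-lineage library, whereas the other 6 libraries were mixed. The set's share was higher in progenitors in 7 of 10 libraries, with a mean log2 ratio of 0.50 ± 0.55 (SD, n = 10 libraries). In the P-lineage libraries progenitors had 18.7%, 10.1%, 6.60% and 8.23%, given from the youngest library to the 2 at 21 to 24 h, beside 7.51%, 4.39%, 4.57% and 4.49% in their neurons. All 4 were higher in progenitors. The command interneuron library gave 16.4% in progenitors and 9.26% in neurons, the sensory neuron library 11.4% and 9.92%, and the second flp-7 library 10.9% and 7.95%. The unc-86 library gave 13.1% and 13.7%, the unc-47 pool 8.27% and 10.0%, and the acr-2 pool 9.49% and 10.1%. These 3 were lower in progenitors. The mean of the shares of single cells gave a log2 ratio of 0.18.

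In the test over all 10 libraries 3 of 80 members were higher in progenitors (background 30.3%) and 1 was lower (background 30.4%), with a median log2 difference of -0.01 for the members and 0.04 for all genes. The scaling mattered: with library totals only, 23 were higher and 1 lower, at an all-gene median of 0.40, and with DESeq2's size factors 2 were higher and 3 lower, at -0.34. All 4 members that differed share their gene number with another member. rpl-41.1 had 883, 1263 and 1614 CPM in progenitors and 129, 192 and 289 CPM in neurons. It was higher in progenitors in every library, and the ranges were far apart (log2 difference 2.68, SE 0.20, adjusted p = 1.586e-07 by edgeR with Benjamini-Hochberg adjustment). rpl-24.2 had 229, 271 and 337 CPM in progenitors and 29.8, 123 and 183 CPM in neurons, again without overlap (log2 difference 1.43, SE 0.25, adjusted p = 0.0002848 by edgeR with Benjamini-Hochberg adjustment).

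In the opposite direction, rpl-11.1 had 0, 16.6 and 39.6 CPM in progenitors and 13.4, 58.5 and 104 CPM in neurons. The ranges overlapped, but it was lower in progenitors in all 10 libraries (log2 difference -1.24, SE 0.29, adjusted p = 0.002438 by edgeR with Benjamini-Hochberg adjustment). rpl-25.2 was called at 0.58 (adjusted p = 0.03427 by edgeR with Benjamini-Hochberg adjustment), but its call was lost without any single library other than the sensory neuron library and the acr-2 pool. The calls of rpl-41.1 and rpl-24.2 held in every alternative tried. rpl-12 at 0.61, rla-0 at -0.51, rla-1 at -0.43 and rla-2 at -0.14 were not called, and neither were ubl-1, ubq-2 and rack-1 at 0.00, -0.18 and -0.08. Reads of near-identical copies may have been shared between them in the counting, so values of single copies are uncertain.

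In the P-lineage libraries alone most of the set was higher in progenitors. There 65 of 80 members were higher (background 25.9%) and none lower (background 28.2%). The median log2 difference was 0.88, beside 0.02 for all genes. By subunit the higher members were 38 of 46 large, 24 of 31 small and 3 of 3 stalk genes. rpl-41.1 led at 2.22, followed by rpl-12 at 1.16 and rps-23, a small subunit gene, at 1.14. The stalk genes rla-0, rla-1 and rla-2 were higher by 0.67, 0.86 and 0.77. rpl-11.1 alone was below 0, at -0.50 (adjusted p = 0.0655 by edgeR with Benjamini-Hochberg adjustment). The count rested on 2 of the 4 libraries: it fell to 6 without the library at 15.5 to 18.5 h and to 24 without the second at 21 to 24 h, with medians of 0.85 and 0.91, so the size of the difference changed little.

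In the other 6 libraries 57 of 80 members were lower in progenitors (background 36.1%) and 2 higher (background 21.6%), at a median of -0.76 for the members and -0.26 for all genes. With library totals only, 3 were lower and 4 higher, with medians of 0.13 and 0.56. The members lay below the median of all genes under TMM, DESeq2's size factors and library totals, whereas the sign of their own median changed. The 2 higher genes under TMM were rpl-41.1 at 2.80 and rpl-24.2 at 1.78. Lower were rpl-11.1 at -2.15, rpl-38 at -1.55, rla-0 at -1.47 and rla-1 at -1.46. The count of lower members fell to 34 without the acr-2 pool and to 36 without the unc-47 pool. Among neurons of those 2 libraries 26.6% and 11.3% of the stored entries of the set were zeros, and among their progenitors 24.6% and 11.7%.

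The difference between the P-lineage and the other libraries was tested as an interaction in the same fit. For 76 of 80 members the progenitor to neuron difference was larger in the P-lineage libraries (background 5.86% of genes) and for none smaller (background 5.07%), with a median of 1.58. The count was 76 with DESeq2's size factors but 16, with 2 in the other direction, with library totals. The gap was widest for rla-1 at 2.28 and rpl-22 at 2.16. The 4 genes not called were rpl-41.1 at -0.64, rpl-24.2 at -1.18, rpl-25.2 at 1.00 and rpl-12 at 1.06. The neurons differed between the library sets: motor neurons of the lineage were most of the neurons in the 3 later P-lineage libraries, whereas the other libraries held many other classes, and strain and reporter moved with the split as well. Stored zeros were present in 4 of the 6 other libraries and in none of the P-lineage libraries. Their part in the difference was not tested. The gene unc-54 took 0.19% to 4.71% of neuron UMIs and 1.67% to 4.74% of progenitor UMIs in the P-lineage libraries; without it the mean log2 ratio of shares over all 10 libraries was 0.47.

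**Figure D2:**
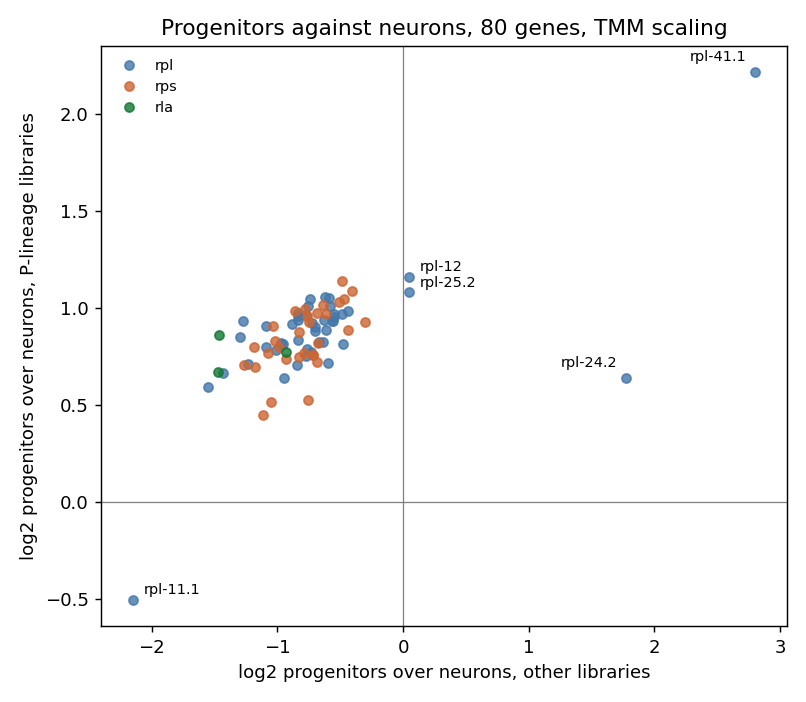
log2 difference of progenitors over neurons for 80 ribosomal protein genes, in the 6 other libraries (horizontal axis) and the 4 P-lineage libraries (vertical axis), each from its own edgeR fit with TMM scaling; colours mark large subunit (rpl), small subunit (rps) and stalk (rla) genes. Most genes lie left of 0 and above 0, at medians of -0.76 and 0.88, while with library totals the horizontal median is 0.13; rpl-41.1, rpl-24.2 and rpl-11.1 stand apart.

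Along the P lineage the share fell from the P cells to the neuroblast Pn.a and again to its daughters. At 11 to 14 h the class P0 had 23.1% (exact Clopper-Pearson 95% interval 23.10% to 23.14%, counting error only) and Pn had 27.1%. The neuroblast Pn.a had 17.9%, 15.1%, 10.7% and 13.4%, in the same order of age as above. Its daughter Pn.aa had 8.65%, 8.56%, 5.64% and 7.02% in the same order, and its other daughter Pn.ap had 9.94%, 7.31%, 4.42% and 5.45%. Pn.a lay above both daughters in every library, by 0.90, 0.97, 1.20 and 1.19 on the log2 scale against the 2 daughters together. Pn.aaa, a daughter of Pn.aa, had 5.73%, 4.11% and 4.85% in the 3 later libraries. The Pn.p lineage, epidermal cells born from the same mothers as Pn.a, stood at 26.6%, 31.2%, 31.8% and 41.3%. In no library did its share overlap that of the neuroblasts' descendants.

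The same held gene by gene. These class pairs were picked after their shares were seen, so they are described with no test. Pn.a was above Pn.aa and Pn.ap in all 4 libraries for 77 of 79 members measured, where 28.3% of all genes were, with a median log2 difference of 1.09. The members that departed were rpl-24.2 at a mean of -0.26 and rpl-41.1 at -0.10. The Pn.p lineage was above Pn.a in all 4 libraries for 79 of 80 members (23.6% of all genes) at a median of 1.25; rpl-41.1 was the exception, at -1.29. Pn.aa was above Pn.aaa in 3 of 3 libraries for 75 of 78 members (35% of all genes) at 0.53. Cells of Pn.a were also deeper than VD cells, at a median of 2359 to 5516 UMIs per cell against 901.5 to 1919.

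**Figure D3:**
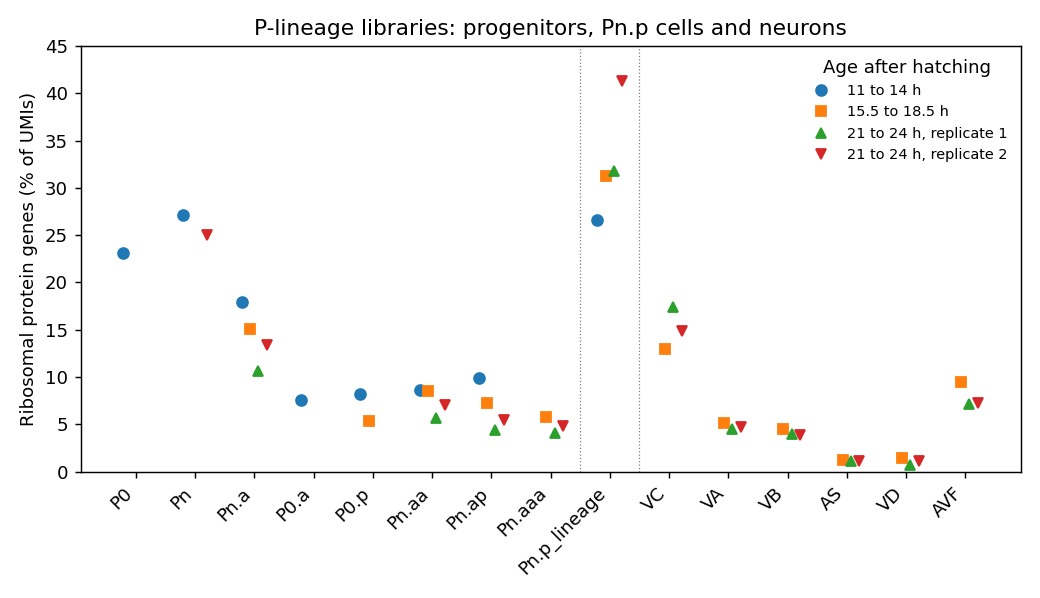
Share of UMIs on the ribosomal protein genes (vertical axis, %) by cell class in the 4 P-lineage libraries; marker shape and colour give the library, dotted lines separate progenitors, the Pn.p lineage and neurons, and classes with fewer than 20 cells are not drawn. Pn.a lies between 10.7% and 17.9%, Pn.p between 26.6% and 41.3%, and VD and AS between 0.70% and 1.41%.

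Among the neurons that the lineage produced, the share differed more than 10-fold by class. VD motor neurons, which inhibit muscle with GABA, had 1.41%, 0.70% and 1.11% in the 3 later libraries. AS motor neurons had 1.21%, 1.15% and 1.16%. VD and AS are sisters, both daughters of Pn.ap. The excitatory VA and VB neurons, sisters made by Pn.aaa, had 5.18%, 4.54% and 4.73%, and 4.51%, 3.96% and 3.90%. The VC neurons, which innervate the vulval muscles, had 13.0%, 17.5% and 14.9%. No range of VD or AS overlapped that of VA, VB or VC. The median depth was 901.5, 1252 and 1919 UMIs per cell in VD and 521.5, 1042 and 1100.5 in VC. VC exceeded VD for 79 of 79 members in 3 of 3 libraries (47.4% of all genes) at a median of 4.00 on the log2 scale, VA exceeded AS for 77 of 78 (37.7% of all genes) at 2.19, and the mother class Pn.ap exceeded VD for 79 of 79 (57.8% of all genes) at 2.52, again with no test.

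Set against the other neurons of the same 4 libraries, P-lineage motor neurons had less ribosomal protein mRNA. From the youngest library to the 2 oldest their share was 3.40%, 3.92%, 4.25% and 4.01%. In other neurons, mostly AVF and RIH interneurons, it was 12.9%, 11.8%, 9.91% and 11.204%. The sides were split by class name, and the other neurons are not all from outside the lineage, as AVF come from it. The ranges of the 2 sides were far apart, although only 55 motor neurons and 73 other neurons were in the youngest library. The VC neurons, 2103 cells of the motor neuron side, went the other way. Their shares, given above, were higher than those of the other neurons in each later library. In the test 77 of 80 members were lower in motor neurons and none higher (background 11.8% lower, 5.89% higher), with a median log2 difference of -1.91. rla-0 had 170, 391, 585 and 490 CPM in motor neurons in order of age and 4195, 2730, 2258 and 3442 CPM in other neurons, so no value overlapped. It showed the widest gap (log2 difference -2.99, SE 0.46, adjusted p = 0.004701 by edgeR with Benjamini-Hochberg adjustment). rpl-37 at -2.57, rpl-38 at -2.51, rpl-31 at -2.46 and rla-1 at -2.45 came next. rpl-37 also differed between libraries, at 1076, 617, 74.2 and 108 CPM in other neurons.

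The 3 members not called were rpl-24.2, rpl-41.1 and rpl-25.2. rpl-24.2 had 170, 205, 147 and 186 CPM in motor neurons and 71.7, 81.6, 127 and 134 CPM in other neurons. It was higher in motor neurons in all 4 libraries (log2 difference 0.69, SE 0.30, adjusted p = 0.1705 by edgeR with Benjamini-Hochberg adjustment). rpl-41.1 differed by -0.25 and rpl-25.2 by -1.01. The count of lower members was 77 with each scaling, and 77 without AVF; it fell to 40 without the library at 15.5 to 18.5 h and to 42 without the second library at 21 to 24 h. ubl-1, ubq-2 and rack-1 were lower by the same test, at -2.52, -1.69 and -2.29.

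Over all neuron classes with at least 20 cells in at least 3 live libraries, 78 in number, the share of a class was set against all neurons of its own library. The middle of the distribution was narrow, with the central 50% of classes between -0.46 and 0.42 on the log2 scale, and 66 classes had a median share between 5% and 20%. The lowest were VD2 at -2.95 ± 0.36 (SD, n = 3 libraries), VD at -2.80 ± 0.99 (SD, n = 6), AS at -2.68 ± 1.49 (SD, n = 6), VD12 at -2.16 ± 1.04 (SD, n = 3) and PQR at -2.07 ± 0.62 (SD, n = 6). The order within these 5 does not exceed their spread. PQR and its close neighbour in the ranking AQR are oxygen-sensing neurons made after hatching by the Q neuroblasts. DD, the embryonic counterparts of VD, had no such low share, at 11.3%, 10.9% and 6.47% in 3 libraries.

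Outside the P-lineage libraries these low classes had many stored zeros, whose part in their shares was not tested. VD had 1.31%, 0.44% and 1.42% in the ceh-34, unc-47 and acr-2 pools, where 32.0%, 76.1% and 59.4% of its stored entries for the set were zeros. In the P-lineage libraries, which hold none, VD was as low. AS had 2.28%, 0.19% and 2.07% in the same 3 libraries, with 21.5%, 86.5% and 49.5% zeros. PQR had 3.55% in the sensory neuron library, which holds no zeros, and 0.95% to 3.89% in 5 others with 5.13% to 19.8% zeros. AQR had 6.16% in the sensory neuron library and 1.23% to 2.91% in 4 others with 3.69% to 19.9% zeros.

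At the high end stood HSN at 1.80 ± 0.24 (SD, n = 6 libraries), RIH at 1.45 ± 0.96 (SD, n = 3), VC at 1.13 ± 0.84 (SD, n = 5), RIG at 1.00 ± 0.12 (SD, n = 5) and M2 at 0.97 ± 0.22 (SD, n = 3). HSN, the serotonergic motor neurons of the egg-laying circuit, which are born in the embryo and mature late in larval life, had a share of 28.6%, 34.9% and 40.3% as lowest, median and highest, with 1.09% to 4.42% zeros where a library had any. All 6 HSN values lay above every value of every other ranked class and above the muscle median of 27%. In 5 of the 6 libraries HSN was only 21 to 26 cells, and in the unc-86 library 833. VC, of the same circuit, lay at 11.3% and 12.2% in the 2 libraries outside the P-lineage set; its mean log2 ratio was 0.22 over those 2. RIH likewise lay at 0.36 in the unc-86 library alone.

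**Figure D4:**
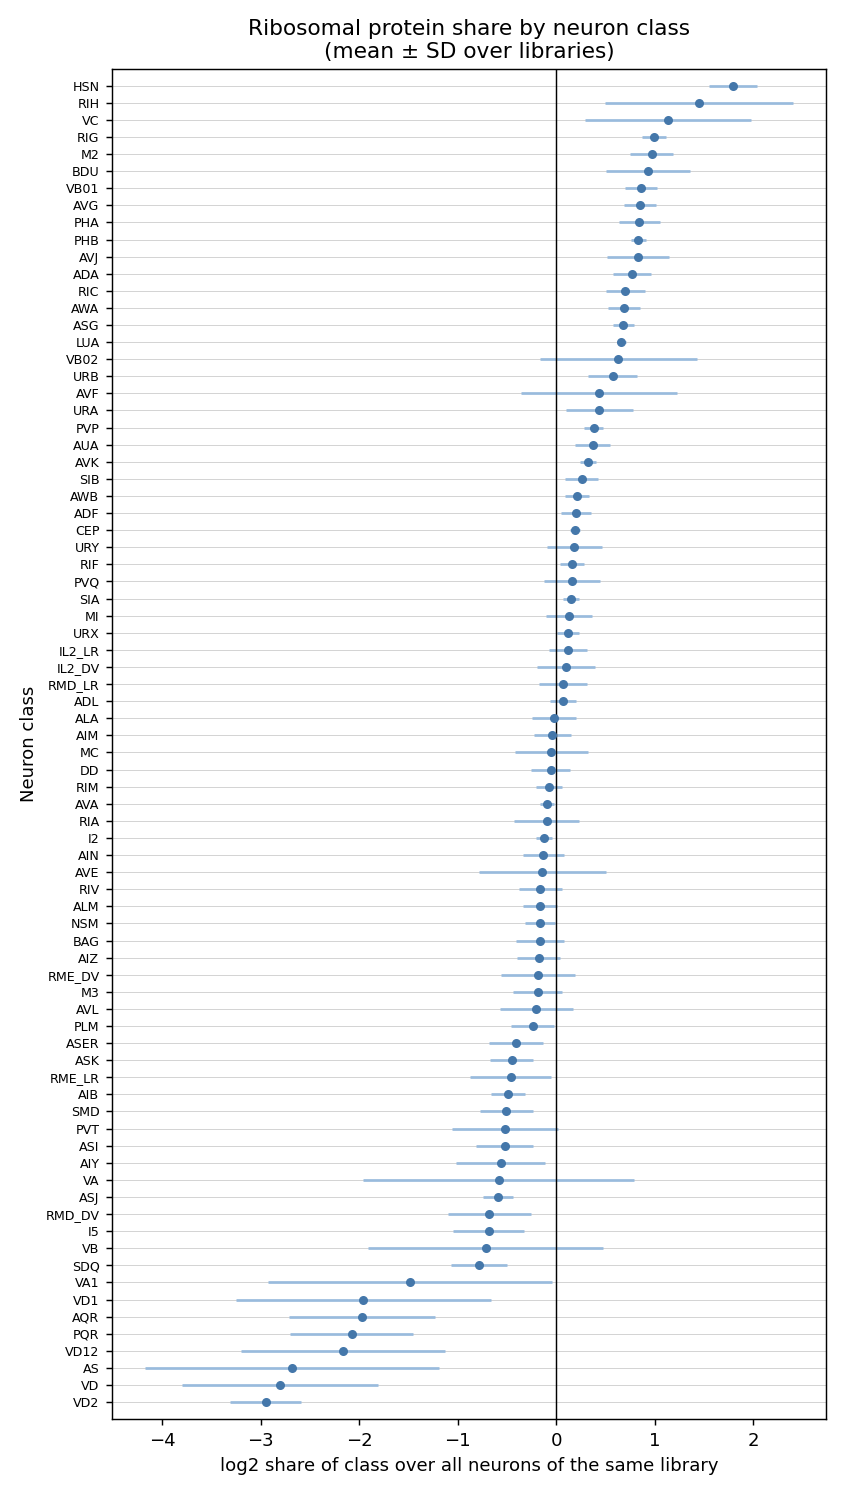
Neuron classes (vertical axis) by the log2 ratio of their ribosomal protein share to that of all neurons of the same library (horizontal axis); points are means and bars are SD over 3 or more live libraries. VD2, VD, AS, VD12 and PQR are lowest, at -2.95 to -2.07, and HSN is highest at 1.80.

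Where 2 members share a gene number, the share of the pair taken by each differed by cell type. Of the UMIs of rpl-41.1 and rpl-41.2 together, rpl-41.1 took 16.4%, 28.8% and 35.6% in progenitors as lowest, median and highest of 10 libraries, and 2.28%, 4.42% and 18.8% in neurons. The 4 highest neuron values were P-lineage libraries. Its median was 6.74% in muscle and mesoderm, 3.33% in epidermis and 2.86% in glia. By class its median was highest in Pn.aaa at 41.06%, Pn.ap at 40.9%, VD12 at 35.7%, Pn.aa at 35.3% and VA1 at 31.8%, and lowest in PHB at 0.49%, with HSN at 1.12%. Dividing neuroblast classes and motor neurons of the lineage thus stood together at the top.

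rpl-24.2 took 7.71%, 17.8% and 27.3% of its pair with rpl-24.1 in progenitors and 0.79%, 2.86% and 26.02% in neurons. These genes share a number, but rpl-24.2 is related to an assembly factor, so they need not be copies of the same gene. The class medians of rpl-24.2 were highest in AS at 56.9%, VD12 at 54.8%, VD at 42.2%, VD1 at 32.9% and Pn.aaa at 31.5%. In VD its level was 80.7 CPM at the median, so the high share went with little rpl-24.1. rpl-11.1 took a median of 3.73% of its pair with rpl-11.2 in neurons and 1.61% in progenitors. It reached 31.7% in SIA and 29.7% in ALA, a single interneuron that promotes sleep, with 13.2% in RIH and 12.2% in AVK. rpl-25.1 took a median of 41.3% of its pair with rpl-25.2 in neurons and 33.5% in progenitors, and was highest in the sensory neurons ASK at 69.3%, PLM at 67.7% and PHA at 60.8% and the interneurons AIN at 59.7% and AIZ at 58.7%. These shares are levels within a pair, described with no test, and reads shared between copies may move them.

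**Figure D5:**
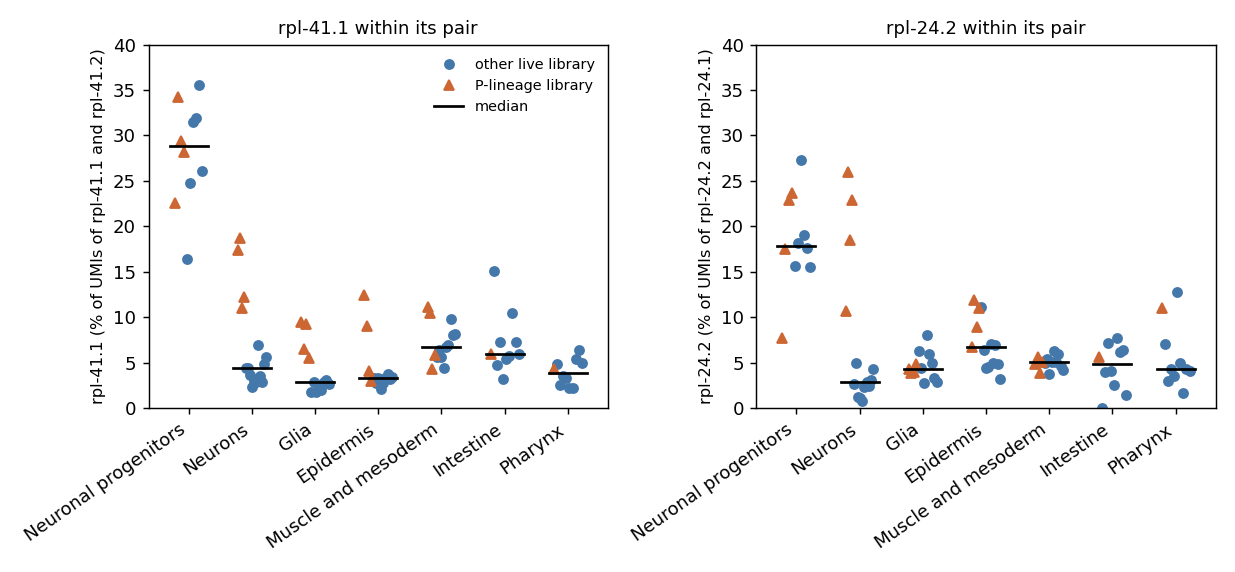
Share of a pair's UMIs taken by rpl-41.1 (left, with rpl-41.2) and by rpl-24.2 (right, with rpl-24.1), in % on the vertical axes, by tissue; each point is 1 live library, triangles are P-lineage libraries and bars are medians. For rpl-41.1 progenitors have a median of 28.8% and neurons 4.42%, and for rpl-24.2 17.8% and 2.86%, with the neurons of the P-lineage libraries highest among neurons.

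Other genes of translation were followed as lists in the same fits. Between neurons and non-neuronal tissues they went with the ribosomal proteins: all 6 elongation factors tested were lower in neurons, among them eef-2, which moves the ribosome along the mRNA, at -2.05, and eef-1B.1 at -2.09. Of 34 initiation factors 28 were lower and 2 higher, of 30 genes of ribosome assembly and rRNA synthesis 27 lower and 1 higher, of 71 mitochondrial ribosomal proteins 65 lower and none higher, and of 31 aminoacyl-tRNA synthetases 24 lower and 2 higher. Examples were nol-58 at -3.35 and nol-2 at -2.26 in ribosome assembly, mrpl-12 at -2.68, and kars-1 and mars-1, the lysine and methionine enzymes, at -2.47 and -2.09. Among initiation factors ife-1 was at -2.01 and iff-2 at -1.71. Those higher in neurons were ife-4 at 0.83 and eif-1 at 0.47 among initiation factors and ncl-1 at 0.80 in ribosome assembly. Of the synthetases, ears-2 at 0.40 and rars-2 at 0.64 were higher. The background was 34.9% lower and 33.8% higher. The medians were -1.87, -1.06, -1.47, -1.21 and -1.05 in the order given.

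Between progenitors and neurons, part of each list was called. Higher in progenitors were 3 of 6 elongation factors, 18 of 34 initiation factors, 10 of 30 assembly genes, 16 of 71 mitochondrial ribosomal proteins and 18 of 31 synthetases, and lower were 0, 0, 0, 4 and 1. The background was 30.3% higher and 30.4% lower, and the medians were 0.54, 0.50, 0.32, 0.29 and 0.62. Examples were eef-1B.2 at 1.06, ife-1, one of the cap-binding proteins, at 2.09, eif-3.E at 1.22 and lpd-7 at 1.04. Others were mrpl-54 at 1.66, rars-1 at 1.03 and cars-2 at 4.05. The assembly list also counts nop-1 at 2.69, which in this worm is named for pseudocleavage and is not a nucleolar gene. Lower were mrpl-22 at -1.95, mrpl-39 at -0.99 and rars-2 at -1.58. Without the P-lineage libraries 0, 4, 7, 5 and 8 were higher and 1, 1, 3, 6 and 1 lower, beside 21.6% and 36.1% of all genes.

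Against the non-neuronal tissues, progenitors were lower in 6 of 6 elongation factors, 17 of 34 initiation factors, 25 of 30 assembly genes, 55 of 71 mitochondrial ribosomal proteins and 18 of 31 synthetases, beside a background of 35.3% lower and 28.9% higher. The nucleolar genes nol-56 and fib-1, the latter encoding fibrillarin, were lower, at -3.96 and -3.35 on the log2 scale. The gene nop-1, counted in the assembly list but not a nucleolar gene, was higher at 1.81. Higher in progenitors were 0, 1, 1, 2 and 2. Few list members other than elongation factors were lower in the P-lineage motor neurons. Of the elongation factors 5 of 6 were lower than in other neurons, among them eef-1G at -1.76, and so were 1 of 28 initiation factors tested (pab-1 at -1.41), 0 of 16 assembly genes, 1 of 46 mitochondrial ribosomal proteins (mrps-17 at -1.06) and 3 of 23 synthetases, fars-2 at -3.78 and mars-1 at -1.17 among them, beside a background of 11.8%. Higher were mrps-27 at 1.42 and ears-1 at 2.08. Their medians were -0.13, -0.14, -0.04 and -0.35, and that of the elongation factors -1.26.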

How the data were processed

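UMI counts per gene and cell were deposited by the authors as one matrix with a table of cell classes and tissues; Cell Ranger 6.0.0 is named in the submitters' processing notes. Genome build and cell filters were not given in the sources used here. Counts were summed per live library and side, with at least 50 annotated cells a side, and shares and CPM were computed from the sums. Fits used edgeR 4.0.16 in R 4.3.3 (quasi-likelihood test, filterByExpr, TMM, library as a block) over all genes, with Benjamini-Hochberg adjustment and a threshold of 0.05 on the adjusted p without a fold threshold; DESeq2 1.42.0 gave size factors and a Wald test as alternatives. The fits were tested on simulated data with known changes. They recovered 24.1% of 2-fold changes for progenitors against neurons and 31.6% for progenitors against non-neuronal tissues. For neurons against non-neuronal tissues it was 26.1%, and for motor neurons against other neurons 10.6%. Of 4-fold changes they recovered 81.4% to 91.8%, and of 1.5-fold changes at most 2.82%. A gene that was not called may thus still differ by such amounts. Classes needed at least 20 cells in a library. Shares carry exact Clopper-Pearson intervals of 95% in the tables; they are far narrower than the spread between libraries and cover counting error only. Live libraries held 1798814 to 50689801 UMIs. The fixed library and cells of unknown tissue entered no fit.

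Members to be named in each comparison were listed by rule: the 5 with the highest and the 5 with the lowest log2 difference, and the stalk genes. Also listed were members not called, or called against most members, where 5 or fewer, and members sharing a gene number. With them came ubl-1, ubq-2 and rack-1, and the 2 genes of each list with the smallest p a direction. The text gives only part of the genes listed in this way, so those printed are not a complete selection. Classes were the 5 highest and 5 lowest. Members, lists and comparisons were chosen with earlier results of these data known, and the class pairs after their shares were seen.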

Additional observations from a re-analysis of the deposited data

Results flagged for a closer look

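In the AS motor neurons, 1 of 6 libraries lay far from the others. The log2 ratio of the AS share to that of all neurons was -5.71 in the unc-47 pool and -2.31 to -1.85 in the other 5. That value rests on 29 cells, and 86.5% of the stored entries of the set in them were zeros; the part of these zeros was not tested. Of 13 groups of libraries examined in this way, chance alone flags about 1 in 20.

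The difference between progenitors and neurons was larger in the P-lineage libraries than in the others for 76 of 80 members by the interaction test. The count was 16 with library totals only.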

How the results depend on the processing

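Over all 10 libraries, members higher in progenitors than in neurons numbered 3, against 23 with library totals only and 65 in the P-lineage libraries alone. Members lower numbered 1, against 3 with DESeq2's size factors, 10 with DESeq2's Wald test, 5 with at least 20 cells a side, 0 in the P-lineage libraries alone, 57 without them, 22 in libraries with stored zeros and 0 in those without. In the P-lineage libraries alone 40 members turned from below to above 0, and without those libraries 35 turned from above to below 0. Of the members named by rule, those that were not called over all libraries but were called with the opposite sign in the P-lineage libraries were rla-0 (0.67), rla-1 (0.86), rla-2 (0.77), rpl-11.2 (0.71), rpl-24.1 (0.85), rpl-31 (0.67), rpl-36.A (0.92) and rpl-7 (0.91), and without those libraries rpl-25.1 (-0.83); the cause was not tested. Over all alternatives, 73 further values of named members changed sign without being called in either fit. Leaving out 1 library at a time gave 6 to 71 higher in the P-lineage libraries; in the other libraries it gave 34 to 75 lower, and library totals gave 4 higher and 3 lower. The interaction gave 16 higher and 2 lower with library totals.

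Leaving out 1 library gave 40 to 78 members lower in P-lineage motor neurons. With no filter on low counts 1 member, rpl-42, became higher in neurons than in non-neuronal tissues, and 1, rpl-24.2, became higher in P-lineage motor neurons than in other neurons. Against intestine, DESeq2's size factors gave 28 higher and 0 lower and library totals 61 lower, and leaving out 1 library gave 1 to 2 higher and 0 to 21 lower. Against pharynx, library totals gave 0 higher and 71 lower, DESeq2's size factors 11 lower, and leaving out 1 library 0 to 1 higher and 2 to 65 lower. Against rectal cells, library totals gave 0 higher and 31 lower, and leaving out 1 library 0 to 1 in each direction. The spread between the highest and lowest class was 4.75 on the log2 scale, and 4.44 with cells of at least 500 UMIs.

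The fits treat the 2 sides of a library as a pair. Without that block the members lower in motor neurons numbered 75, and the progenitor to neuron counts were 2 higher and 1 lower. Replicate numbers in the labels belong to groups that are not compared with each other, so they give no other pairing. Of the values that answer a comparison, 408 stayed within the limits set and 51 moved. Values under TMM are relative to all genes, and shares cannot tell less ribosomal protein mRNA from more of other mRNA.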

Other observations

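The methanol-fixed cells of the strains of the ceh-34 pool, in no comparison, held few ribosomal protein UMIs. Their 1488 neurons had 0.0911% of UMIs on the set (642 of 704516 UMIs; exact Clopper-Pearson 95% interval 0.0842% to 0.0985%, counting error only), where the 2125 live neurons of the same strains had 11.3%. Their muscle and mesoderm cells had 6.37%, against 27% in the live library. In the fixed library 70.0% of the stored entries of the set were zeros, against 32.7% of all its entries; the part of these zeros was not tested.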
